A study of Homo sapiens with 8 samples.

Results

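The baseline transcript levels of the prostate cancer cell lines CWR-R1 and C4-2B, both labelled as enzalutamide-sensitive, were compared over 13230 genes. These were all genes listed in the deposited tables of both lines. The comparison asks how far 2 drug-sensitive lines, each with a resistant form in the same study, differ at baseline. Enzalutamide is a drug of the antiandrogen class that shuts off androgen signalling. The series holds 8 libraries of polyadenylated RNA, of which 3 entered the main comparison and 3 more, of the resistant forms, served for a second look at the same genes.

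CWR-R1, grown out of a castration-relapsed tumour of the CWR22 human xenograft, gave 1 library, and its labels name no transgene. C4-2B, a bone-seeking subline of LNCaP obtained by passage through castrated mice, gave 2 libraries labelled as biological replicates of cells with a luciferase and GFP transgene. The resistant forms CWR-R1ENZR (1 library) and C4-2BENZR (2 libraries, with the same transgene) carry the same line names. Culture medium, serum and drug exposure are not stated in the labels used here, so a difference between lines and a difference in culture cannot be told apart, and neither can the line and the transgene. Levels are reads scaled to a total of 1000000 over the 13230 shared genes. The shared genes held 15080733 reads in CWR-R1, against 19948294 and 19895616 reads in C4-2B replicates 1 and 2.

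The luminal cells of the prostate secrete proteases and other proteins into the glandular lumen under the control of androgen. Androgen signalling acts through response elements near genes such as KLK3, which encodes prostate-specific antigen. Pioneer and lineage factors such as FOXA1 and HOXB13 open and select those sites. Castration-resistant tumours can keep this programme, lose the secretory part of it, or take on features of other lineages.

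KLK3 had the lowest ratio between the lines and its neighbour KLK2 was low as well, so the promoter sequences of these 2 genes are shown first. The sequences are from RefSeq (build GRCh38.p14, plus strand, 5′ to 3′), from 250 bases before to 50 bases after the annotated start. They are reference sequence, not reads of these cell lines, and the expression data were made on another build, hg19. KLK3 (chr19:50854665-50854964) and KLK2 (chr19:50873189-50873488) share GAACAGCAAGTGCT, the longest run of letters common to both between 200 and 150 bases before their starts, in capitals. It overlaps the proximal androgen response element known from KLK3.
KLK3: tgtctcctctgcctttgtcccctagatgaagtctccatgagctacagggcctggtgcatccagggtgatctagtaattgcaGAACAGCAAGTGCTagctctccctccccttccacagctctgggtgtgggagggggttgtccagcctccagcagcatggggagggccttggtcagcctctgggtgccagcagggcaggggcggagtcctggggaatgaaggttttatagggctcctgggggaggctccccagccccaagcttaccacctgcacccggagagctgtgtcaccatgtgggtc
KLK2: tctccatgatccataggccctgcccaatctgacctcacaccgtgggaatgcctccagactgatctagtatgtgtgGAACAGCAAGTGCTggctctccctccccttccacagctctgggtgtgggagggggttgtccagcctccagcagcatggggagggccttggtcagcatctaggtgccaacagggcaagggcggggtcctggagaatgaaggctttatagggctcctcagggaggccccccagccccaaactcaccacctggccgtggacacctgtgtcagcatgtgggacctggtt
The shared run lies 169 to 156 bases before the start of KLK3 and 175 to 162 bases before that of KLK2. On either strand it was found in 2 of 35116 promoters of the same length (0.00570%), those of KLK2 and KLK3. The run was taken from these 2 similar promoters, so their place in the count was fixed in advance and the count tests nothing. With a shift of 6 bases the 2 windows were identical at 225 of 294 aligned bases (76.5%). Closer to the starts they share a longer unbroken run, most of it outside the bases searched. The letters in capitals are thus a small part of what the 2 promoters share. A match of letters is a description and shows no binding.

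Between the lines, 2107 of 11805 genes compared were at least 2-fold higher in CWR-R1 (17.8%) and 1205 were at least 2-fold lower (10.2%), while 8493 (71.9%) lay within 2-fold. The 11805 genes had a level of at least 5 in either line, the other 1425 shared genes did not, and the ratio was that of level + 1, which understates the change of low genes. At 8-fold or more, 394 genes were higher and 114 lower, and at 32-fold or more 63 were higher and 15 lower. The median log2 ratio was 0.06 and the median absolute log2 ratio 0.58. Between the C4-2B replicates the median absolute log2 ratio was 0.09, its 95th percentile 0.38, and 14 genes (0.119%) lay at least 2-fold apart, of which 10 were also among the genes at least 2-fold apart between the lines. The largest replicate gap, 4.90 on the log2 scale, was that of PPAN-P2RY11, a readthrough transcript that shares its sequence with PPAN and P2RY11. Across genes, which are not independent replicates, log2 levels correlated at 0.758 between the lines and at 0.995 between the C4-2B replicates.

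No test of these differences was run: CWR-R1 has a single library, and the tables of the lines were normalized and listed separately. The level in CWR-R1 lay outside the range of both C4-2B replicates for 11137 of the 11805 genes (94.3%), but the spread between CWR-R1 cultures is not known. Intervals given with folds are exact binomial (Clopper-Pearson, 95%) and cover counting error only, since reads are not independent molecules. Where a line had no read, its floor was 3 reads per library, a level of 0.199 in CWR-R1 and of 0.151 in C4-2B. Among the compared genes 30 had no read in C4-2B and 3 had none in CWR-R1. Genes listed in 1 table only are outside this comparison, so genes used by 1 line alone are counted incompletely. Counts of list members below are to be read beside the shares over all genes compared, 17.8% higher and 10.2% lower. A gene with a level under 5 in 1 line was compared through the other line alone, so the filter fixed its direction in advance. This holds for members of several lists below. No list was tested.

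**Figure D1:**
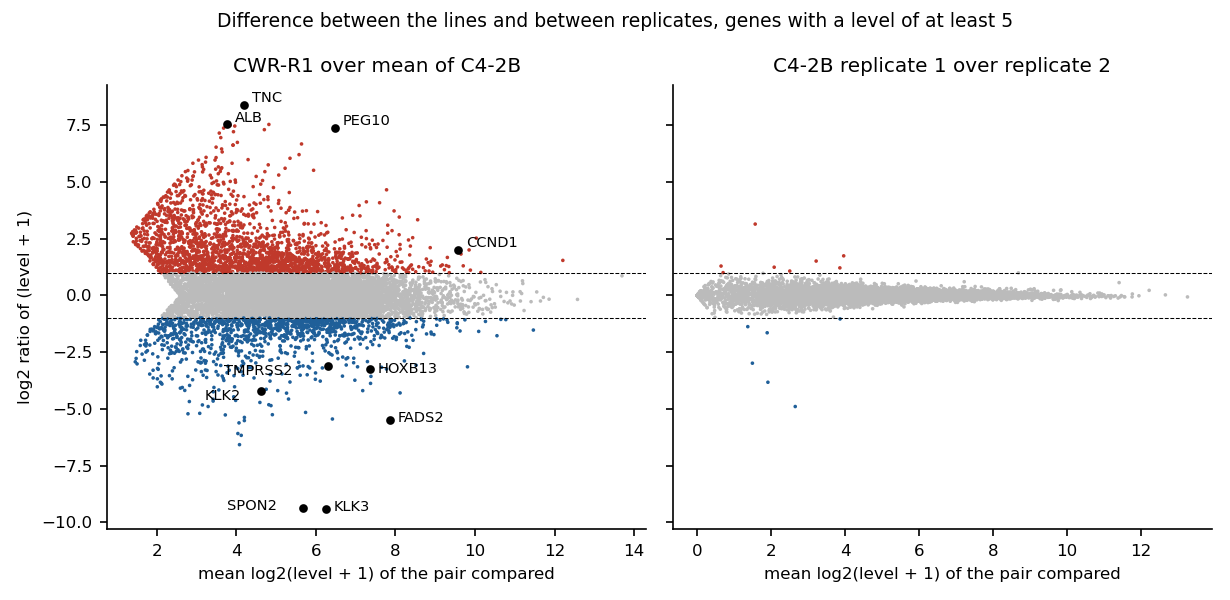
Log2 ratio of (level + 1) against the mean log2(level + 1) for the 11805 genes compared, CWR-R1 over the C4-2B mean on the left and C4-2B replicate 1 over replicate 2 on the right; red points are at least 2-fold higher, blue points at least 2-fold lower, and dashed lines mark 2-fold. The 2107 red and 1205 blue genes of the left panel stand against 14 genes in the right panel, and KLK3 and SPON2 lie lowest.

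Both lines carried luminal epithelial transcripts. The luminal keratin KRT8 stood at 665 in CWR-R1, against 318 and 313 in C4-2B, and its partner KRT18 at 228, against 388 and 399. The prostate membrane antigen FOLH1 was at 174 in CWR-R1, against 678 and 704 in C4-2B. FOXA1, the pioneer factor of luminal cells, was at 365, against 439 and 463, a 1.24-fold lower level (95% interval 1.20 to 1.27). The defining secretory markers KLK3 and KLK2 were low in CWR-R1, at 1.92 and 4.64. Of 12 fibroblast markers, 3 were compared and summed to 67.8 in CWR-R1, against 15.8 and 12.5 in C4-2B. The matrix gene LUM, at 11.4 in CWR-R1, had no read in C4-2B, FBLN1 was at 34.5 against 1.15 and 0.553, and the collagen gene COL1A1 at 21.8 against 14.6 and 11.9. VWF was the single endothelial marker of 12 listed in both tables (5.64, against 7.32 and 7.04), and CD68 the single blood cell marker of 16 (2.65, against 12.7 and 15.2). In bulk RNA, fewer cells of a type and less RNA per cell cannot be told apart, and the part of other cells in the differences was not tested.

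Kallikreins and prostate secretory genes, a list that also holds the membrane antigen gene FOLH1, had 5 of 9 compared members lower in CWR-R1, with KLK3 and SPON2 at the lowest ratios of all genes compared. KLK3 had a level of 1.92 in CWR-R1 (29 reads), against 2009 and 1965 in C4-2B (40074 and 39103 reads). The C4-2B libraries lay close together and CWR-R1 stood 1033-fold lower (95% interval 719 to 1543). KLK2, the neighbouring kallikrein that shares the run of promoter letters, was at 4.64 in CWR-R1, against 104 and 106 in C4-2B, 22.6-fold lower (17.9 to 29.1). KLK4, a kallikrein of the same locus, went the other way, at 152 in CWR-R1, against 99.4 and 101 in C4-2B (1.52-fold higher, 1.44 to 1.60). SPON2, a secreted matrix protein, was at 0.995 in CWR-R1, against 1366 and 1250.0 in C4-2B, 1315-fold lower (797 to 2350.2). AZGP1, the zinc-binding glycoprotein of prostatic fluid, was at 7.63, against 94.5 and 97.3, or 12.6-fold lower (10.4 to 15.3), and FOLH1 was 3.97-fold lower (3.82 to 4.14). CPE, a carboxypeptidase that processes peptide hormones, was the member at least 2-fold higher, at 119 in CWR-R1, against 36.6 and 35.1 in C4-2B. Of the 18 genes in this list 11 were listed in both tables and 9 were compared. Of these 1 was higher (11.1%, against 17.8% of all genes) and 5 were lower (55.6%, against 10.2%). The median log2 ratio was −1.98, against 0.06 over all genes. Without the level filter, which adds the low genes PLA2G2A and TMEFF2, the median was −0.72.

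Androgen-activated genes inside the cell and in its membranes divided. Of 33 such genes 27 were compared, and 12 were at least 2-fold lower in CWR-R1 (44.4%, against 10.2% of all genes). Another 2 were higher (7.41%, against 17.8%) and 13 lay within 2-fold, with a median log2 ratio of −0.86. FKBP5, a cochaperone of steroid receptors, was higher: 881 in CWR-R1, against 347 and 372 in C4-2B (2.45-fold, 2.39 to 2.51). ZBTB10, a zinc finger repressor, was at 646, against 90.3 and 87.7 (7.26-fold, 6.99 to 7.55). These were the 2 higher members.

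The lower members included membrane proteins used as prostate markers. TMPRSS2, a serine protease, was at 25.8 in CWR-R1, against 228 and 231 in C4-2B (8.90-fold lower, 8.04 to 9.88). SLC45A3, a transporter-like protein known as prostein, was at 15.4, against 181 and 187. The metalloreductase-family genes STEAP1 and STEAP2 were 12.3-fold and 12.1-fold lower, at 13.4, against 157 and 171, and at 47.5, against 565 and 585. All 4 of these genes were lower than both C4-2B libraries by a wide margin. Metabolic members were lower as well. SORD, which oxidises sorbitol to fructose, was at 109, against 790.4 and 837. GNMT, glycine N-methyltransferase, was at 2.06, against 24.3 and 21.1.

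**Figure D2:**
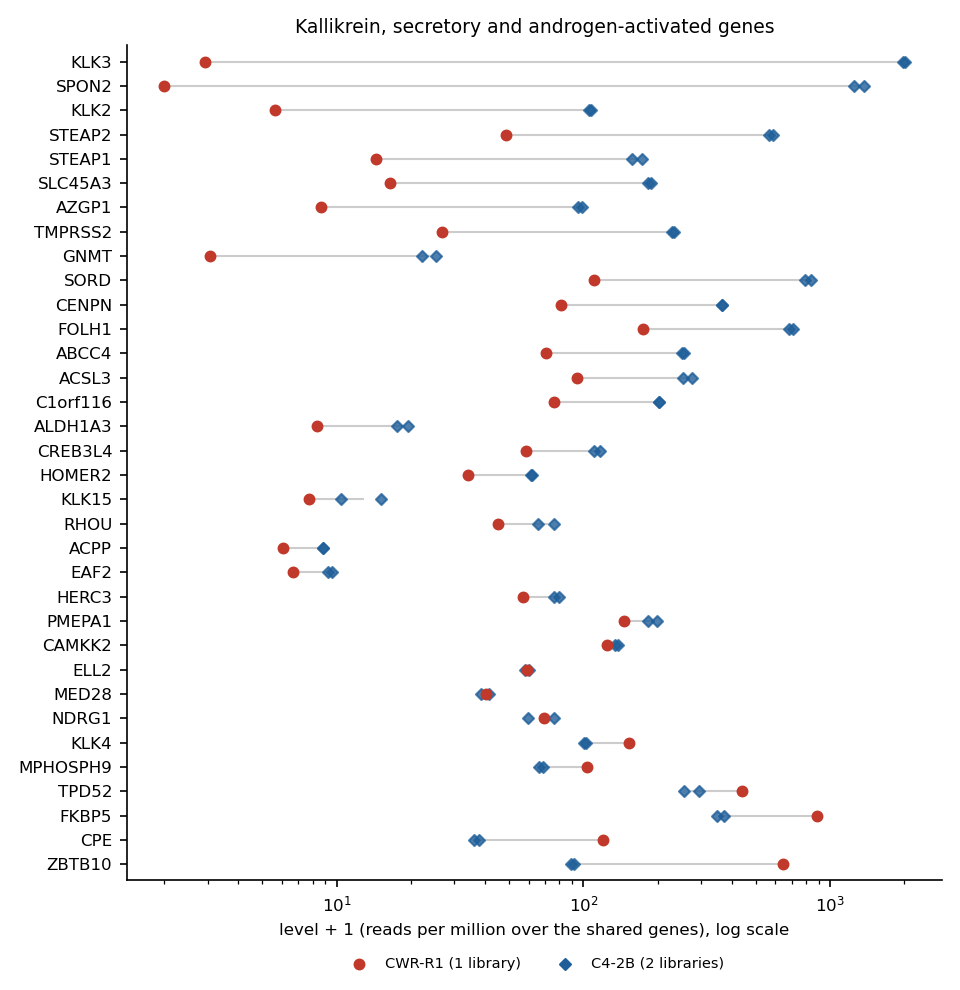
Level + 1 (reads scaled to 1000000 over the shared genes, log scale) of compared kallikrein, secretory and androgen-activated genes, with 1 red point for CWR-R1 and 2 blue diamonds for C4-2B; the grey line joins CWR-R1 to the C4-2B mean, and genes run from the lowest log2 ratio at the top. KLK3 and SPON2 show the longest gaps, and FKBP5 and ZBTB10 lie to the right in CWR-R1.

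Transcripts that rise when androgen is withdrawn were mixed (8 of 18 compared, 3 higher, 2 lower, median −0.44). BCHE, butyrylcholinesterase, was at 19.8 in CWR-R1, against 1.96 and 1.76 in C4-2B, and SERPINI1, a neuronal serpin, at 11.5, against 2.06 and 2.01. UGT2B15, which inactivates androgens by glucuronidation and whose reads may be shared with other UGT2B genes, was at 13.3, against 4.71 and 4.22. CAMK2N1, an inhibitor of calmodulin kinase II, was at 37.5, against 180.4 and 182, and the potassium channel gene KCNN2 at 11.9, against 24.2 and 27.0. The log2 ratio of KCNN2, −1.05, was under 2-fold with a pseudocount of 2 or without C4-2B replicate 2 (−0.97 at the smallest). The decarboxylase gene DDC was within 2-fold, at 46.8, against 87.8 and 93.4. Each of the first 3 was above both C4-2B libraries, but passed the level filter through CWR-R1 alone, which fixed that direction in advance. The last 3 were below both C4-2B libraries.

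Of 25 steroid-converting enzymes 9 were compared, with 4 at least 2-fold higher and 0 at least 2-fold lower on the log2(level + 1) scale (median 0.84). AKR1C3, which reduces androstenedione to testosterone and whose reads may be shared with AKR1C copies, was at 23.9 in CWR-R1 and had no read in C4-2B, at least 159-fold higher. HSD17B11, a hydroxysteroid dehydrogenase of lipid droplets, was at 67.6, against 8.27 and 7.14 (8.78-fold). HSD17B6 was at 8.22, against 1.80 and 3.52. AKR1C3 and HSD17B6 passed the level filter through CWR-R1 alone, so the filter fixed their direction in advance. SRD5A1, a 5-alpha reductase, was at 46.2, against 25.6 and 25.1, which is 1.82-fold higher. STS, the steroid sulfatase, lay just short of the threshold on the low side, at 7.49, against 17.4 and 14.2 (log2 ratio −0.98), and passed it in 5 of the alternatives. HSD17B10 was at 62.7, against 109 and 105 (1.70-fold lower, 1.59 to 1.83).

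Of 19 targets of the glucocorticoid receptor, several of which androgen also induces, 16 were compared (median 0.85). Of these 6 were higher (37.5%, against 17.8% of all genes) and 3 lower (18.8%, against 10.2%), so calls in both directions were more frequent than over all genes. The clock gene PER1 was at 93.4 in CWR-R1, against 30.7 and 31.0 in C4-2B, and CEBPD, a bZIP factor, at 102, against 27.6 and 23.6. NFKBIA, the inhibitor of NF-kB, was just within 2-fold, at 153, against 76.7 and 80.4. Lower members were KLF15 (13.7, against 38.5 and 36.6) and the metallothionein MT1X (16.6, against 41.5 and 42.7).

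The 15 highest and 15 lowest log2 ratios named single genes from several lineages. The matrix glycoprotein TNC had a level of 336 in CWR-R1 (5070 reads) and no read in C4-2B, at least 2233-fold higher. ALB, which encodes serum albumin and is mainly a liver product, was at 187 in CWR-R1 with no read in C4-2B, at least 1244-fold higher. ALDH1A1, a retinaldehyde dehydrogenase, stood at 164 (at least 1088-fold) and PDK4, a kinase that shuts down pyruvate dehydrogenase, at 141 (at least 935-fold), again without a C4-2B read. Thus 4 of the 15 highest genes were without a read in both C4-2B libraries.

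The imprinted, retrotransposon-derived gene PEG10 was at 1156 in CWR-R1, against 5.51 and 6.28 in C4-2B (196-fold, 172 to 224). HSPB6, a small heat shock protein, was at 383, against 0.902 and 1.26. The WNT receptor FZD8 was at 503, against 3.76 and 4.12, or 128-fold higher (109 to 151). MSI1, an RNA-binding protein of neural progenitors, was at 327, against 0.802 and 1.36. ANGPTL4, a secreted inhibitor of lipoprotein lipase, was at 206, against 0.100 and 0.251. NPNT, an integrin ligand of basement membranes, was at 185, against 0.201 and 0.302, ID4, an inhibitor of bHLH factors, at 135, against 0.0501 and 0.151, and the spectrin SPTBN1 at 168, against 0.802 and 0.352. Each of these 8 genes had at least 2030 reads in CWR-R1 and at most 125 in either C4-2B library.

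The remaining 3 of the highest genes were cancer-testis genes, silent in most adult tissues outside the germ line. SSX2B was at 192 in CWR-R1, against no read and 3 reads in C4-2B (2549-fold, 872 to 12383), with reads that may be shared with SSX2. CTAG1A and CTAG1B, the near-identical genes of the antigen NY-ESO-1, had the same values (149 in CWR-R1, against 0.602 and 0.452 in C4-2B) and cannot be told apart.

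Among the 15 lowest, KLK3 and SPON2 stood apart from the rest. PAGE1, another cancer-testis gene, was at 0.729 in CWR-R1, against 161 and 169 in C4-2B (226-fold lower, 126 to 453). The homeobox gene IRX4 was at 1.06, against 149 and 146, and TNFRSF19, a receptor of the tumour necrosis factor family, at 0.995, against 126 and 143. SMO, the signal transducer of the Hedgehog pathway, was at 0.398 (6 reads), against 54.1 and 46.7, and PIK3CD, the delta catalytic subunit of PI3K, at 1.39, against 119 and 114. Signalling genes of several pathways were thus among the lowest. FADS2, the delta-6 desaturase of polyunsaturated fatty acid synthesis, was at 33.3, against 1563 and 1544 (46.7-fold lower, 42.7 to 51.1). The lipid phosphatase gene PPAP2A was at 7.96, against 313 and 326. PRUNE2 was at 11.9, against 601 and 529, LITAF at 3.85, against 184 and 186, and the adaptor gene EFS at 1.13, against 85.6 and 76.9. The set was completed by NETO1, PARP10 and KIAA1217, at 1.72, 1.86 and 0.133 in CWR-R1, against C4-2B means of 124, 118 and 41.1. MGMT, the enzyme that repairs alkylated guanine, is outside this set and was chosen after its values were seen: 0.398 in CWR-R1, against 37.2 and 32.4 in C4-2B, 87.5-fold lower (40.1 to 239).

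**Figure D3:**
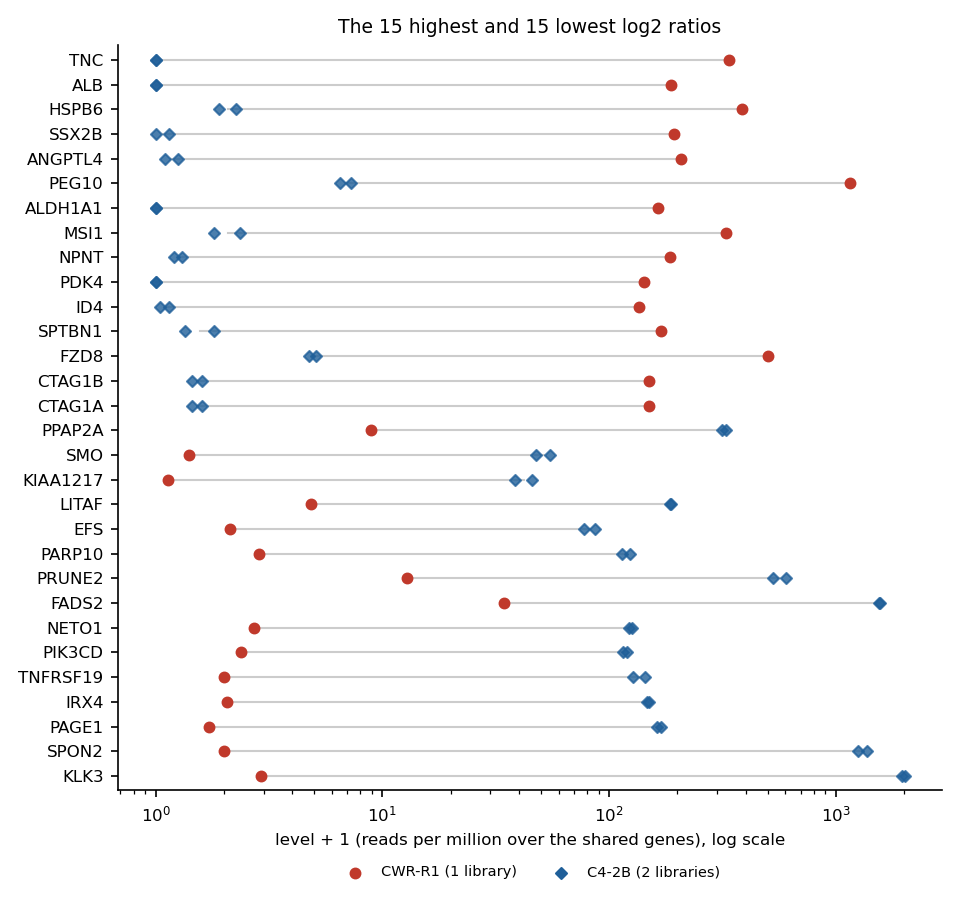
Level + 1 (reads scaled to 1000000 over the shared genes, log scale) of the 15 highest (top) and 15 lowest (bottom) log2 ratios, with 1 red point for CWR-R1 and 2 blue diamonds for C4-2B; the grey line joins CWR-R1 to the C4-2B mean. TNC, ALB, ALDH1A1 and PDK4 had no read in C4-2B, and KLK3 and SPON2 are the longest lines on the low side.

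Factors that set lineage differed gene by gene (17 of 30 compared, 7 higher, 3 lower, median 0.62). HOXB13, the homeobox factor of the caudal prostate lineage, was at 52.7 in CWR-R1, against 501 and 503 in C4-2B, 9.52-fold lower (8.87 to 10.2). TRPS1, a GATA-type zinc finger of luminal epithelia, was at 51.1, against 0.952 and 1.81 (37.0-fold higher). The PEA3-family factors ETV4 and ETV5 were at 13.1, against 0.652 and 0.251, and at 24.0, against 1.05 and 1.36. SOX9 was 3.78-fold higher and the mineralocorticoid receptor gene NR3C2 3.54-fold higher, at 34.3, against 8.77 and 10.6. GATA2, a partner of FOXA1 that was not among the named members, stood at 271, against 287 and 278. The tumour suppressor RB1 was at 70.7, against 70.4 and 64.8, with a fold interval that includes 1 (0.973 to 1.12).

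Outside HOXB13, HOX genes and their cofactors were mostly higher. Of 41 genes 25 were compared, with 15 higher, 2 lower and a median of 1.16. HOXC10 stood at 42.6 in CWR-R1 and had no read in C4-2B, at least 283-fold higher. HOXA9 was at 37.3, against 0.501 and 0.201 (106-fold, 62.8 to 196), HOXA3 at 16.4, against 0.501 and 0.553, HOXC4 at 26.8, against 1.65 and 1.46, and HOXB3 at 9.35, against 0.401 and 0.955. The paralog HOXA10, between HOXA9 and HOXA11 in the cluster, was at 42.1, against 36.5 and 37.8. HOXA11 was lower, at 3.38, against 10.3 and 8.39. The higher members thus came from the A, B and C clusters, and neighbouring genes of 1 cluster differed in opposite directions.

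Epithelial genes also divided by gene. Of the luminal list 15 of 18 were compared, with 4 higher and 7 lower (median −0.78). EPCAM, an epithelial adhesion molecule, was at 475 in CWR-R1, against 87.4 and 88.8 in C4-2B, CD24 at 32.0, against 3.01 and 2.31, and the epithelial factor ELF3 at 156, against 17.5 and 15.4. E-cadherin (CDH1) was at 381, against 806 and 812, 2.13-fold lower, the peptidase DPP4 at 16.4, against 146 and 154, keratin 19 (KRT19) at 1.53, against 22.9 and 24.5, and the protease gene ST14 at 52.5, against 226 and 216. The basal keratin KRT15 was below the level filter in both lines, and the basal list had 6 members compared of 22 (2 higher, 2 lower). The laminin chain LAMA3 was at 16.6, against 237 and 218, and its integrin ITGA6 at 8.49, against 63.6 and 56.9, while SFN, the epithelial 14-3-3 protein, was at 59.8, against 1.00 and 0.854 (64.4-fold, 46.4 to 92.1).

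Mesenchymal genes differed gene by gene (6 of 23 compared, 4 higher, 0 lower, median 1.15, and 0.48 without the level filter). Vimentin (VIM) was at 7.43 in CWR-R1, against 12.9 and 13.7 in C4-2B, 1.79-fold lower. Fibronectin (FN1) was at 518, against 217 and 204, and the collagen crosslinker LOX at 13.7, against 3.96 and 3.42. TNC, given above, was the widest.

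Genes associated with neuroendocrine differentiation were mostly higher among the few that passed the level filter. ENO2 and SYP passed it through CWR-R1 alone, so the filter fixed their direction in advance. Of 23 genes 10 were listed in both tables and 5 compared, with 4 higher and 0 lower (median 4.34, and 1.21 without the level filter, which adds 5 low genes). ENO2, neuron-specific enolase, was at 329.7 in CWR-R1, against 4.21 and 3.87 in C4-2B (81.6-fold, 69.7 to 96.1). SYT4, a synaptotagmin of secretory vesicles, was at 124, against 5.21 and 5.13. The NOTCH ligand DLL3 was within 2-fold, at 33.8, against 19.6 and 18.4. Synaptophysin (SYP) was at 7.36, against 0.952 and 1.56, from 111 reads in CWR-R1, against 19 and 31 reads. The defining factor INSM1 had no read in any of the 3 libraries. ENO2 is also a glycolytic enzyme and PEG10 is expressed in placenta, and neither marks neuroendocrine cells alone.

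Liver and intestine genes were few (6 of 33 compared, 4 higher, 2 lower). Besides ALB, the nuclear receptor gene HNF4G was at 31.0 in CWR-R1, against 1.35 and 1.01 in C4-2B (26.3-fold, 19.4 to 36.2). The urea cycle enzyme CPS1 was lower, at 4.91, against 26.1 and 24.8, as was PDX1 at 2.32, against 7.22 and 7.84. ALB and HNF4G passed the level filter through CWR-R1 alone, and CPS1 and PDX1 through C4-2B alone. The filter thus fixed the direction of these genes in advance.

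Of 37 receptor kinases and their ligands 22 were compared, with 9 higher (40.9%, against 17.8% of all genes), 2 lower (9.09%, against 10.2%) and a median of 0.50. FGFR1 was at 89.8 in CWR-R1, against 15.3 and 16.0 in C4-2B, and FGFR3 at 98.7, against 19.7 and 20.9. KITLG, the ligand of KIT, was at 70.8, against 1.30 and 1.26 (55.3-fold, 41.8 to 74.8), and TGFA at 10.2, against 1.00 and 2.51. EGF was at 0.464 (7 reads), against 15.5 and 16.6, and its receptor EGFR at 45.8, against 91.1 and 84.6. The 2 ligands of EGFR named here thus lay on opposite sides.

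In the insulin-like growth factor system, the IGF receptors were lower and the adaptors higher (9 of 17 compared, 6 higher, 2 lower, median 1.70). IGF1R was at 32.4 in CWR-R1, against 195 and 189.5 in C4-2B (5.93-fold lower, 5.41 to 6.51), and IGF2R at 96.5, against 317 and 262. The insulin receptor INSR was at 103, against 32.1 and 25.7. IRS2, a docking protein downstream of both receptors, was at 409, against 4.46 and 4.67 (89.5-fold, 77.2 to 104), and IRS1 at 50.3, against 15.7 and 13.9. The binding protein IGFBP5 was at 7.63, against 0.401 and 0.302, and the RNA-binding protein IGF2BP2 at 41.8, against 2.31 and 2.11. PI3K pathway genes were closer to the background (21 of 22 compared, 5 higher, 1 lower, median 0.29). PIK3CD, given above, was the lower member, the mTOR inhibitor DEPTOR was at 52.1, against 10.2 and 8.95, and PREX2 at 15.5, against 0.501 and 0.854. AKT1 was at 697, against 345 and 342, or 2.03-fold higher, and below 2-fold with TMM scaling (log2 ratio 0.94).

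Of 30 immediate early and ERK feedback genes, which respond to growth factor signalling, 22 were compared, with 9 higher (40.9%), 1 lower (4.55%) and a median of 0.79. EGR1 was at 38.0 in CWR-R1, against 1.10 and 0.955 in C4-2B (36.9-fold, 26.9 to 52.0), the phosphatase DUSP4 at 50.9, against 11.0 and 10.4, SPRY2 at 15.6, against 2.01 and 1.61, and PHLDA1 went lower, at 6.76, against 100.1 and 112. Cyclin D1 (CCND1) was at 1532, against 377 and 384 (4.02-fold, 3.94 to 4.11), and its kinase CDK6 at 138, against 2.36 and 3.02 (51.5-fold, 42.4 to 63.2). The inhibitor CDKN1A was lower, at 51.3, against 129 and 129.9, and CDKN1C higher, at 20.0, against 2.76 and 3.57.

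Cell cycle lists had fewer 2-fold differences than all genes (17.8% higher, 10.2% lower), while their medians lay above the 0.06 of all genes. Of 32 G1/S genes 4 were higher and 0 lower (12.5% higher, median 0.32), and of 35 G2/M genes 4 were higher and 1 lower (11.4% higher, median 0.48). MKI67 was at 303 in CWR-R1, against 234 and 180.3 in C4-2B, 1.47-fold higher beside C4-2B replicates that themselves differed by 0.37 on the log2 scale. TOP2A was at 593, against 245 and 251, AURKB at 166, against 65.6 and 63.8, and E2F2 at 115, against 31.4 and 28.9, while CDK1 was lower, at 165, against 389 and 433.

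Of 13 mismatch repair genes compared, 3 were higher (23.1%, against 17.8% of all genes) and 1 was lower (7.69%, against 10.2%), with a median of 0.41. MSH3, which takes part in the recognition of larger loops, was at 2.98 in CWR-R1, against 17.5 and 21.6 in C4-2B, 6.54-fold lower (4.84 to 9.05). The ligase LIG1 was at 201, against 37.9 and 39.5. Homologous recombination and Fanconi genes were mostly within 2-fold (28 of 33, 4 higher, 1 lower), with FANCL at 23.4, against 5.71 and 4.93, BRIP1 at 65.3, against 20.7 and 20.7, and RAD51C at 23.5, against 49.8 and 54.7.

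Stress and cell death genes differed in both directions. The stress cytokine GDF15 was at 23.8 in CWR-R1, against 112 and 123 in C4-2B, and CDKN1A is given above. BBC3, a BH3-only protein, was at 38.1, against 6.92 and 8.49, and GADD45A at 105, against 8.92 and 5.28 (14.8-fold). In the BCL2 family, 4 of 15 were higher (26.7%, against 17.8% of all genes) and 2 lower (13.3%, against 10.2%). BMF was at 89.8, against 4.66 and 4.57 (19.4-fold, 16.7 to 22.8), BCL2 at 9.61, against 3.21 and 2.16, and BID at 5.77, against 26.6 and 25.4.

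Developmental signalling differed by component. In the WNT list 7 of 22 compared were higher (31.8%, against 17.8% of all genes) and 3 lower (13.6%, against 10.2%), with a median of 0.57. The ligand WNT5A was at 18.1 in CWR-R1, against 1.45 and 1.06 in C4-2B, the receptor FZD8 is given above, and the receptor FZD4 was lower, at 17.7, against 106 and 105. LEF1, a transcriptional effector, was at 31.4, against 3.11 and 3.62, and NKD1, a feedback inhibitor, was at a single read in CWR-R1, against 134 and 119 reads. In the NOTCH list 4 of 16 were higher and 1 lower. The effector HEY1 was at 26.0, against 2.31 and 2.21, DLL1 at 7.69, against 1.85 and 2.56, and the modifier LFNG at 7.63, against 23.3 and 23.0.

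Axon guidance genes held 13 higher (48.1%, against 17.8% of all genes) and 3 lower (11.1%, against 10.2%) members of 27 compared (median 0.59). SEMA3D was at 49.9 in CWR-R1, against 0.301 and 0.0503 in C4-2B (284-fold, 137 to 708), SEMA6A at 82.3, against 0.802 and 0.503, and the plexins PLXND1 and PLXNA2 at 65.6, against 3.86 and 3.62, and at 15.1, against 0.251 and 0.553. SEMA3D, SEMA6A, PLXND1 and PLXNA2 passed the level filter through CWR-R1 alone, so the filter fixed their direction in advance. The ephrin EFNA5 was lower, at 22.7, against 211 and 221. Members of both families were also found on the low side within 2-fold, with SEMA4A at 30.2, against 53.1 and 52.7, and PLXNA1 at 58.9, against 99.5 and 88.8. Of 21 ion channels compared, 9 were higher (42.9%, against 17.8% of all genes) and 5 lower (23.8%, against 10.2%), with a median of 0.80. KCNH2, the delayed rectifier of heart muscle, was at 155, against 1.15 and 1.81 (105-fold, 80.9 to 138), CACNA1H, a T-type calcium channel, at 25.3, against 0.301 and 0.201, and CACNA2D1 at 17.8 with no read in C4-2B (at least 118-fold higher). TRPV6, an epithelial calcium channel, was at 1.46, against 49.7 and 41.8, and KCNMA1 at 3.18, against 23.9 and 22.7. Cadherins and protocadherins were mostly outside the comparison (7 of 36 compared, 1 higher, 3 lower), with PCDH7 at 56.6, against 222 and 215.

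The cancer-testis genes compared, 15 of 35, were at similar levels in sum but not gene by gene. The 15 members compared summed to 1187 in CWR-R1, against 1176 and 1174 in C4-2B. Cancer-testis genes listed for 1 line only are outside this sum. They include MAGEA4, at 384 in CWR-R1, and MAGEA10 and GAGE12G, at 50.7 and 47.8 and at 66.4 and 85.4 in C4-2B. Beside SSX2B, CTAG1B and PAGE1, given above, CTAG2 was at 119, against 6.17 and 4.72, and VCX3A at 13.3, against 0.251 and 0.804. PRAME was at 66.0, against 140.0 and 150.1. The MAGEA genes listed for both lines, whose reads may be shared among near-identical copies, were lower by under 2-fold, with MAGEA1 at 103, against 149.9 and 148. Of 39 glycan transferases 19 were compared, with 6 lower (31.6%, against 10.2% of all genes), 1 higher (5.26%, against 17.8%) and a median of −0.72. ST6GALNAC1, which makes the sialyl-Tn antigen, was at 6.70, against 140.4 and 139.8 (20.9-fold lower, 17.2 to 25.7), GCNT1 at 3.98, against 33.0 and 31.2, and GALNT7 at 38.9, against 259 and 264, while MGAT4A was higher, at 22.5, against 1.96 and 1.36.

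Genes of fatty acid synthesis and oxidation differed in both directions. FASN, the fatty acid synthase, was at 1666 in CWR-R1, against 5159 and 4437 in C4-2B (2.88-fold lower, 2.84 to 2.92). ELOVL7, an elongase that androgen induces, was at 32.8, against 587 and 653 (18.9-fold lower), and FADS2 is given above. ELOVL2, an elongase of polyunsaturated chains, was at 57.7, against 3.81 and 3.17, the desaturase SCD5 at 41.8, against 1.70 and 2.21, and ACSL4, which activates arachidonate, at 45.8, against 1.70 and 1.16 (32.0-fold, 24.4 to 42.7). Members of each step, elongation and desaturation, were thus found on both sides, and 7 of 29 were higher and 5 lower (median 0.04). Cholesterol synthesis genes were within 2-fold in 22 of 26 cases (1 higher, 3 lower), with the sterol-regulated factor SREBF1 at 493, against 1160.5 and 1126.

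In glucose metabolism 5 of 32 compared genes were higher (15.6%, against 17.8% of all genes) and 6 lower (18.8%, against 10.2%), with a median of −0.08. The transporter SLC2A12 was at 93.3 in CWR-R1, against 8.87 and 8.24 in C4-2B, and EPAS1, which encodes HIF-2 alpha, at 41.2, against 0.752 and 2.01 (29.8-fold, 22.6 to 40.1). The lactate exporter SLC16A3 was lower, at 69.0, against 348 and 348, as was PFKP, at 38.1, against 149 and 157. Oxidative phosphorylation (45 of 48 within 2-fold) and ribosomal protein genes (43 of 45) were close between the lines. RPL22L1, at 102, against 364 and 391, and RPS19, at 889, against 395 and 415, were the 2 ribosomal exceptions, and reads of such genes can be shared with processed copies.

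Stress-response lists had medians below 0. NRF2 targets had 7 lower (25.9%, against 10.2% of all genes) and 4 higher (14.8%, against 17.8%) members of 27 (median −0.44). The quinone reductase NQO1 was at 43.2 in CWR-R1, against 349 and 340 in C4-2B (7.97-fold lower, 7.37 to 8.64), the malic enzyme ME1 at 9.88, against 148 and 157, and the glutathione transferase GSTM3 at 14.1, against 78.7 and 77.7. The cystine transporter SLC7A11 was at 56.1, against 199.7 and 190.2. ATF4 and unfolded protein response genes had 5 lower and 2 higher of 32 (median −0.37), with DDIT4 at 64.8, against 286 and 298, CHAC1 at 2.92, against 27.0 and 30.4, and the phosphatase subunit PPP1R15A higher, at 107, against 6.07 and 6.43.

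Heat shock genes had 7 lower (28.0%, against 10.2% of all genes) and 4 higher (16.0%, against 17.8%) of 25 (median −0.54). HSPH1, a cochaperone of the HSP70 system, was at 56.1 in CWR-R1, against 426 and 437 in C4-2B, and the HSP90 cochaperone CHORDC1 at 21.2, against 154 and 173. HSPA2 was higher, at 38.3, against 2.56 and 1.41, and so was HSPB8, at 26.0, against 3.01 and 1.26. HSPA1A, whose reads may be shared with HSPA1B, was at 14.6, against 1.45 and 1.01. Of 13 metallothionein and zinc genes, 1 was higher and 3 lower, and the zinc exporter SLC30A4 was at 7.16, against 199 and 188 (27.0-fold lower, 22.3 to 33.0).

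Antigen presentation genes were higher or within 2-fold (14 of 18 compared, 6 higher, 0 lower, median 0.62). The 6 higher members were 42.9% of those compared, against 17.8% of all genes. B2M, beta-2-microglobulin of the class I complex, was at 300.1 in CWR-R1, against 91.6 and 106 in C4-2B (3.04-fold, 2.92 to 3.18), HLA-E at 152, against 31.4 and 34.4, HLA-B at 71.8, against 28.4 and 34.8, and the activator NLRC5 at 18.0, against 8.02 and 6.74. HLA genes are near-identical in parts and can share reads. Interferon-stimulated genes went both ways (7 higher, 4 lower of 22, median 0.56). IFITM1 was at 33.9, against 0.401 and 0.955, PARP14 at 64.0, against 14.3 and 11.7, OAS3 at 1.66, against 45.2 and 41.4 (26.1-fold lower), and the factor IRF7 at 5.77, against 26.0 and 25.2. In the NF-kB list 3 of 9 were lower (33.3%, against 10.2% of all genes) and 0 higher (0%, against 17.8%). The median of this list was 0.14, against 0.06 over all genes, so the list as a whole was not lower. ICAM1, which passed the level filter through C4-2B alone, was at 1.99, against 21.3 and 22.1, and NFKB1 at 23.7, against 71.5 and 69.7.

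Genes of retinoid and dioxin signalling (6 higher, 3 lower of 16, median 0.58) included ALDH1A1, given above. CRABP2, which carries retinoic acid to its nuclear receptor, was at 24.1 in CWR-R1, against 2.26 and 1.71 in C4-2B, and DHRS3 at 59.3, against 3.76 and 3.17. The receptor subunit RXRA was lower, at 47.3, against 197 and 175. AHR, the dioxin receptor, was at 37.7, against 1.50 and 1.81 (22.8-fold, 17.6 to 29.9), and its target CYP1A1 at 32.9, against 3.86 and 4.47, while NQO1, also a target, was lower. Of 16 ABC transporters 4 were higher and 2 lower, with ABCA3 at 216, against 52.2 and 48.4, and ABCC4, an exporter of cyclic nucleotides, at 69.6, against 249 and 254.

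**Figure D4:**
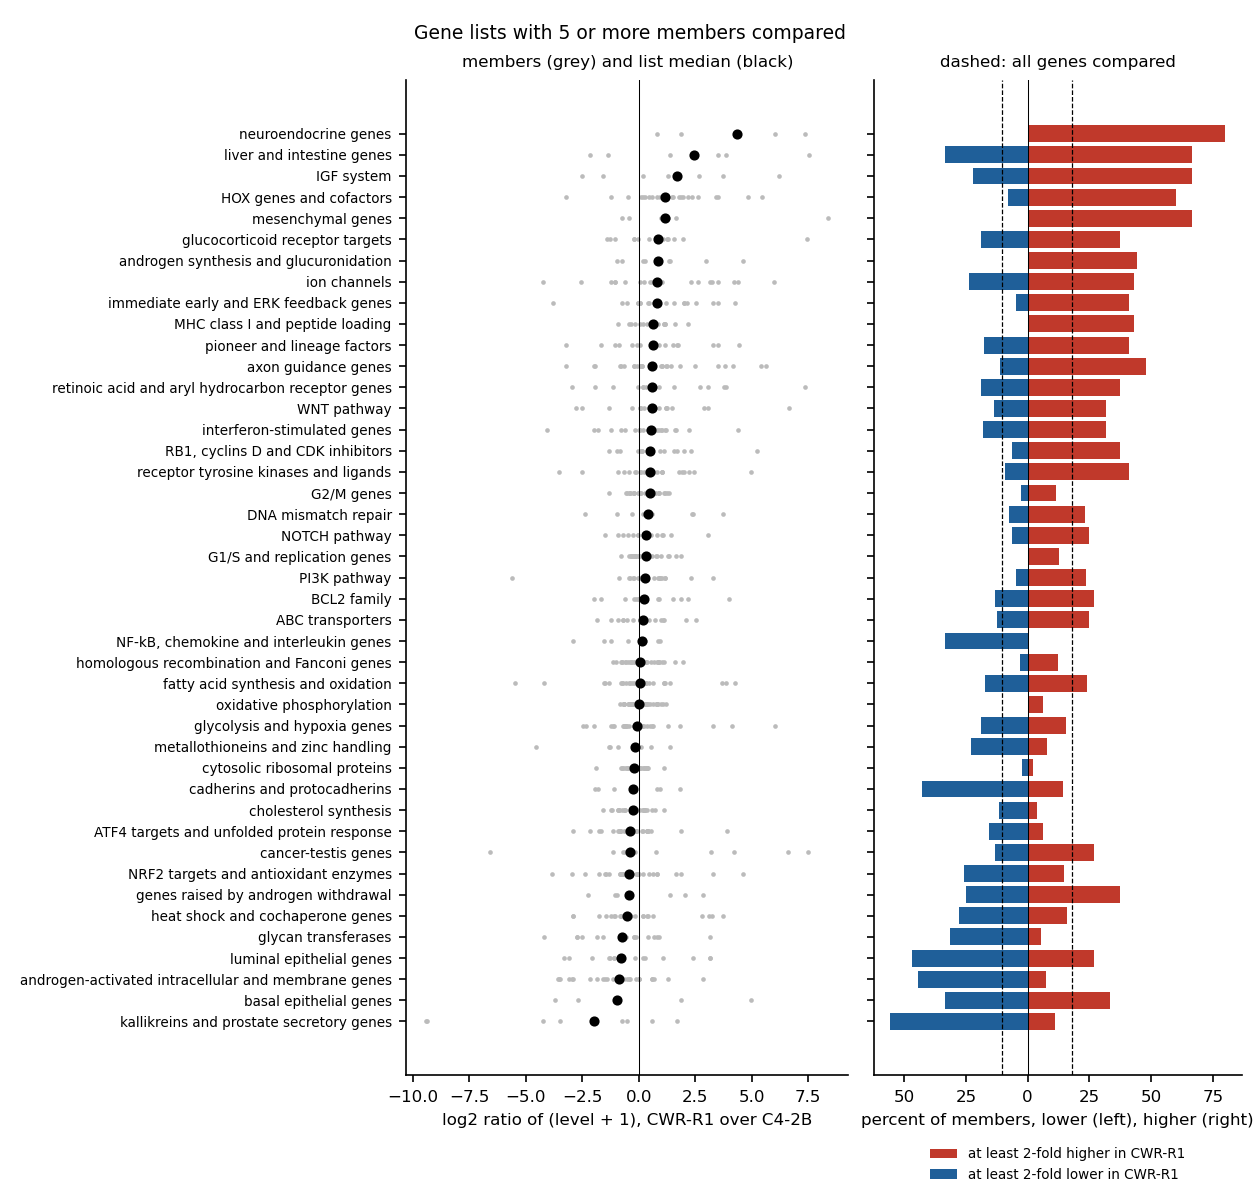
Gene lists described here with 5 or more members compared, ordered by median; on the left, log2 ratio of (level + 1) of each member (grey) and the list median (black), and on the right the percent of members at least 2-fold higher (red, to the right) or lower (blue, to the left) in CWR-R1, with dashed lines at 17.8% and 10.2% for all genes. Neuroendocrine genes have the highest median (4.34, from 5 genes) and kallikreins and secretory genes the lowest (−1.98, from 9 genes).

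The resistant forms of both lines gave a second measure of the line difference in libraries that share no sample with the first. Across the compared genes, log2 levels of CWR-R1ENZR correlated at 0.870 with CWR-R1 and at 0.757 with C4-2BENZR, and those of C4-2BENZR at 0.942 with C4-2B. Between CWR-R1ENZR and C4-2BENZR, 17.0% of the 11805 genes were at least 2-fold higher in CWR-R1ENZR and 12.5% at least 2-fold lower. Of the 2107 genes higher in CWR-R1, 1173 (55.7%) were also at least 2-fold higher in CWR-R1ENZR over C4-2BENZR, 87 (4.13%) were at least 2-fold lower, and 1795 (85.2%) kept the sign. Their median log2 ratio was 1.76 between the sensitive forms and 1.17 between the resistant forms. Of the 1205 lower genes, 616 (51.1%) were also at least 2-fold lower, 55 (4.56%) were at least 2-fold higher, and 1046 (86.8%) kept the sign, with medians of −1.48 and −1.03. For the genes at least 8-fold apart the counts were 303 of 394 higher and 85 of 114 lower. The genes were chosen for their distance in the sensitive forms, so the smaller medians of the resistant forms are no evidence that the lines differ less.

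Single genes differed in whether the gap held. SPON2 was at 1.33 in CWR-R1ENZR, against a mean of 1599 in C4-2BENZR. KLK2 was at 0.140 in CWR-R1ENZR, against 227 in C4-2BENZR, and KLK3 had no read, against 50.7. STEAP2 was at 2.58, against 453, and TRPS1 at 228, against 32.9. These gaps kept their direction. Others closed or turned: ALB was at 0.0698 in CWR-R1ENZR, against 1.43 in C4-2BENZR, SYT4 at 8.72, against 398, FKBP5 at 108, against 728, KRT19 at 339, against 20.2, and CDKN1A at 619, against 139. IGF1R was at 34.3, against 33.9. Of the 15 highest genes 13, and of the 15 lowest 13, were at least 2-fold apart in the same direction between the resistant forms.

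**Figure D5:**
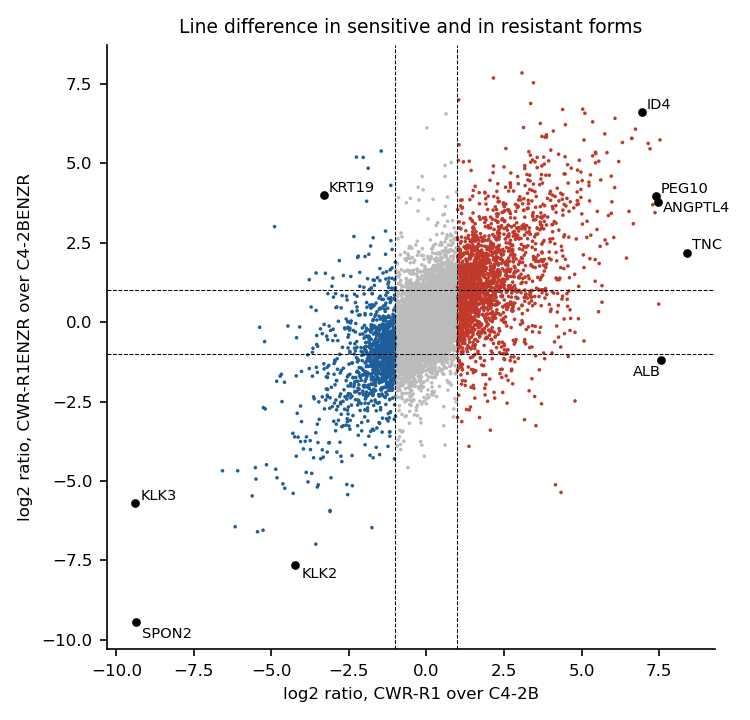
Log2 ratio of (level + 1) of CWR-R1ENZR over C4-2BENZR against that of CWR-R1 over C4-2B for the 11805 genes compared; red and blue points are at least 2-fold higher or lower in CWR-R1, and dashed lines mark 2-fold. SPON2, KLK2 and KLK3 are low on both axes, PEG10, ID4 and TNC high on both, and ALB and KRT19 lie on opposite sides.

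Some runs of neighbouring genes differed in the same direction. In the gene order of RefSeq (GRCh38.p14, used for neighbours only) 11677 of the compared genes could be placed, and 11355 windows of 15 neighbouring genes were read for their median, with no test. The highest window ran from SNHG5 to CASP8AP2, with a median log2 ratio of 2.17, all 15 genes above 0 and 14 at least 2-fold higher, and it stood at 1.87 between the resistant forms. The window from ICA1 to SP8, which holds AHR, had a median of 1.98 (0.52 between the resistant forms), that from LMTK3 to FTL, which holds PPP1R15A, 1.90 (1.35), and that from SNX10 to SCRN1, which holds the HOXA genes, 1.87 (0.56). On the low side the windows from ARMCX4 to NGFRAP1, from NUPL1 to SLC7A1, from SELT to SSR3 and from CRYL1 to SPATA13 had medians of −1.27, −1.25, −1.20 and −1.12, and the resistant forms gave −1.62 for the first of them and −0.61 for the last. Between the C4-2B replicates the medians of these 8 windows lay from −0.11 to 0.01. The windows were chosen for their medians.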

How the data were processed

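Polyadenylated RNA was sequenced as 150-base paired ends and mapped to hg19, per the labels' protocols and the submitters' processing notes. Which aligner and counter were used, and whether strand was used, is not given in the sources used here, so reads of overlapping antisense genes cannot be told apart. The authors deposited 1 table per line with a signal value per library, normalized within each table, beside a signed fold change, a p-value and an FDR for resistant over sensitive cells, which were not used. Within a tolerance of 0.02 reads, 100% of the deposited signal values came out as whole reads, and reads were recovered by division. They were rescaled to a total of 1000000 over the 13230 genes listed in both tables.

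The log2 ratio of (level + 1), CWR-R1 over the mean of the C4-2B replicates, was counted at 2-fold or more among genes with a level of at least 5 in either line. The planned analysis has no test, and no count model was run on the recovered reads, because CWR-R1 has 1 library and the lines were normalized apart. Nothing says how far the C4-2B replicates, labelled biological, were separate cultures. They differed by more than counting error (chi-square per gene 5.63 over 12225 genes with at least 50 reads, against 1 for counting error alone). The 10 most abundant genes held 5.27% of the reads in CWR-R1, against 4.42% and 4.38% in C4-2B.

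The comparison and 47 gene lists (1250 genes, 909 in both tables) were chosen with earlier results of these data known. Named genes are the 15 highest and 15 lowest ratios outside the range of the C4-2B replicates (leaving out genes of the Y chromosome, XIST and symbols beginning with LOC), up to 6 members of each list with the largest ratio and up to 2 of the opposite sign, and a fixed set of 20 genes, of which 5 are not reported here. Genes named outside this rule (MGMT, GATA2, HOXA10, INSM1, KRT15, MAGEA1, PLA2G2A and TMEFF2) were chosen after their values were seen. The ratios and intervals were tested on simulated reads with counting error alone. The C4-2B replicates differed by more than counting error, so that test does not cover the spread between real libraries. Alternatives were other scalings (TMM by edgeR 4.0.16, median of ratios, values as deposited), pseudocounts of 0.5 and 2, other level filters and each C4-2B replicate left out. Python 3.11.15 with numpy 2.4.6, pandas 2.3.3 and scipy 1.17.1, and R 4.3.3, were used.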

Additional observations from a re-analysis of the deposited data

How the results depend on the processing

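The count of genes at least 2-fold higher in CWR-R1 lay between 1923 (TMM scaling) and 2344 (no level filter) and that of lower genes between 1121 (pseudocount of 2) and 1396 (TMM scaling), both within 1.5 times the reported 2107 and 1205. The share of calls that were higher was 63.6%, and 57.9% with TMM scaling, where the median of all genes was −0.02. Leaving out each C4-2B replicate gave 2120 to 2157 higher and 1206 to 1221 lower genes. The count of genes at least 2-fold apart between the C4-2B replicates, 14, was 34 with a pseudocount of 0.5, 8 with a pseudocount of 2, 35 with a level of at least 1 and 39 with no filter. The share of higher genes also higher between the resistant forms lay at 55.3% to 56.9%, and that of lower genes at 50.6% to 51.7%, with a C4-2B or C4-2BENZR replicate left out. The lists of homologous recombination, NF-kB, cadherin, fatty acid and oxidative phosphorylation genes, 5 of 47, changed the sign of their median in some of the 9 alternatives, with medians between −0.32 and 0.28. Without the level filter the medians of liver and intestine genes (2.44 as reported), class I genes (0.62), receptor kinases (0.50), luminal genes (−0.78) and basal genes (−0.95) were 1.37, 1.11, 0.31, −0.48 and −0.50, and with TMM scaling that of interferon genes (0.56) was 0.32. Of 301 named genes 249 were at least 2-fold apart, 14 of these came under 2-fold in some alternative, 12 others reached it, and 0 reversed. No paired analysis was possible because CWR-R1 has a single library whose label carries no replicate number. Depth limits the low side: 3 reads correspond to a level of 0.199 in CWR-R1 and of 0.150 and 0.151 in the C4-2B libraries.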

Other observations

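Genes listed in 1 table only have no level in the other line, which is not the same as a level of 0. The CWR-R1 table lists 1579 such genes (10.7% of its genes), of which 420 had a level of at least 5 in CWR-R1, and the C4-2B table lists 739 (5.29%), of which 84 had a level of at least 5 in C4-2B. The genes named here were chosen after their values were seen. Listed for CWR-R1 alone were the receptor kinase PDGFRA at a level of 509, the actin-binding CNN3 at 397, the cancer-testis gene MAGEA4 at 384, the chemokine CX3CL1 at 270.2, the phosphodiesterase PDE3A at 169.8 and the ephrin receptor EPHA7 at 90.2. Among factors of lineage and stem cells, ETV1 was at 60.3, the glucocorticoid receptor gene NR3C1 at 42.7, SOX2 at 35.9 and the neural factor POU3F2 at 16.4. Among genes of mesenchymal cells, N-cadherin (CDH2) was at 35.0, ZEB1 at 19.6 and TWIST1 at 19.2. Intestinal genes in the same table were the galectin LGALS4 at 73.2, the villin gene VIL1 at 29.2 and CDH17 at 23.7, beside the liver genes A1CF at 31.9 and APOH at 28.0.

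Listed for C4-2B alone were the G protein subunit GNB4 at 356 and 385, the organic cation transporter SLC22A3 at 268 and 259.6, and the histone gene H2AFJ at 219 and 211. The growth factor IGF1 was at 98.7 and 104, the inflammasome gene NLRP2 at 80.0 and 77.2, and the sodium exchanger SLC9A2 at 70.3 and 66.3. TRPM8, a channel that androgen induces in the prostate, was at 10.4 and 15.4. The cancer-testis genes MAGEA10, at 50.7 and 47.8, and GAGE12G, at 66.4 and 85.4, may share reads with near-identical copies.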
